A study of Mus musculus with 16 samples.

Results

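Aortic and pulmonary valves of mouse embryos were compared between mutants and wild type in the 11 of 16 RNA sequencing libraries that were rich in Tbx20, a T-box transcription factor of the endocardial cushions and valves. Libraries were selected on their measured Tbx20 level alone, and a library was kept if its normalised count of Tbx20 was at least 300. This kept 5 wild-type libraries (aortic replicates 2 and 4, pulmonary replicates 2, 3 and 4) and 6 mutant libraries (replicates 2, 3 and 4 of each valve). The 5 libraries left out were replicate 1 of all 4 groups and wild-type aortic replicate 3. All embryos were of the C57BL/6 background and at stage E14.5 (embryonic day), and the tissue was taken by laser microdissection. Wild-type embryos are labelled WT, with no other allele stated. The mutants are Jag1flox;Nkx2.5-Cre, in which Cre recombinase is made where the cardiac gene Nkx2-5 is active and removes floxed Jag1 sequence there. Cells that never had such activity, in themselves or in their precursors, keep the gene. An effect of Cre itself cannot be told apart from loss of Jag1. The sources used here do not give how many Jag1 alleles were floxed, which exons, or how the captured regions were chosen.

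Jag1 encodes a membrane-bound ligand that activates Notch receptors on touching cells. An activated receptor is cleaved, and its inner part enters the nucleus and binds the DNA-binding protein Rbpj, which switches on genes such as the Hey and Hes repressors. In the outflow valves, Notch signals act in the endocardium, in the change of endocardial cells into cushion mesenchyme, and in the thinning of the cushions into leaflets.

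The choice by Tbx20 sets the range of Tbx20, so its levels are a description with no test. They were 1744 and 1501 in wild-type aortic replicates 2 and 4, and 613, 763 and 1032 in mutant aortic replicates 2, 3 and 4. In pulmonary replicates 2, 3 and 4 they were 1467, 947 and 1411 in wild type against 976, 549 and 1152 in mutants. The lowest kept library had 549 and the highest left-out library 123, so no library lay near the threshold. Within each aortic litter pair and each pulmonary litter pair of the kept libraries the mutant had the lower Tbx20 level. Kept libraries had 4.56 to 8.25 M recovered reads (median 6.94 M, where M stands for megareads).

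The genotype groups differed in skeletal muscle content. The mean of 21 skeletal muscle markers on the log2(normalised count + 1) scale was 0.34 to 1.86 in 6 kept libraries, called muscle-poor here, and 4.35 to 5.23 in the other 5, called muscle-containing. The muscle-poor libraries were replicates 2 and 4 of wild type and replicate 4 of the mutants, for each valve, that is 4 of 5 wild-type but 2 of 6 mutant libraries. The same 6 libraries are those with Tbx20 of at least 1000. The summed level of the list was 7.25 to 95.2 in muscle-poor and 1035 to 1946 in muscle-containing libraries, and Actn3, Ckm, Myod1, Myf5, Myog, Pax7, Mybph, Chrng and Atp2a1 were at 0 in at least 3 of the muscle-poor ones. Every skeletal muscle marker tested, 21 of 21, was above 0 in the comparison of mutant with wild type, with a median log2 difference of 1.65. For this reason the main results below are also given with a muscle covariate (the mean of the skeletal muscle markers), in the 6 libraries with Tbx20 of at least 1000, and in the 3 muscle-matched litter pairs. Those pairs (aortic replicate 4, pulmonary replicates 3 and 4) each join a mutant and a wild-type library of 1 litter and of the same muscle class. With fewer libraries, these alternatives say less about any single gene.

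**Figure D1:**
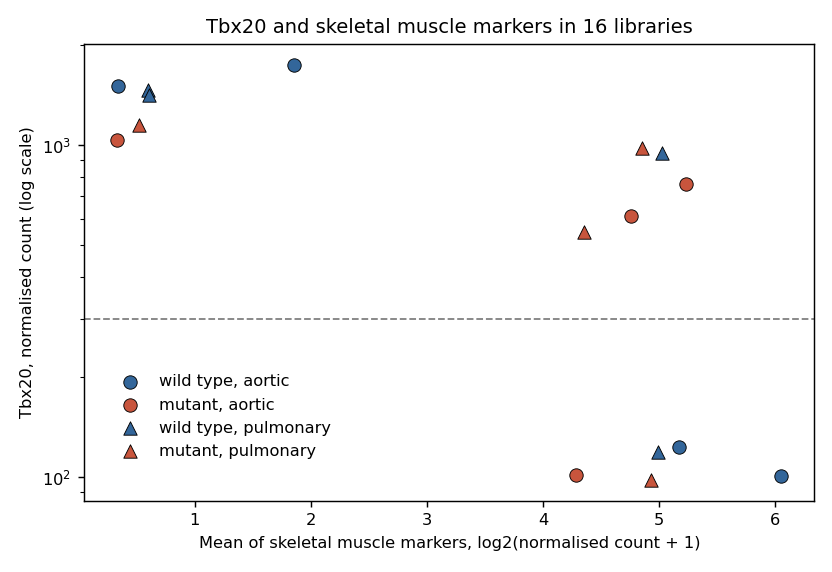
Tbx20 level (normalised count, log axis) against the mean of skeletal muscle markers on the log2(normalised count + 1) scale in each of the 16 libraries, with colour for genotype and shape for valve. The dashed line is the threshold of 300, the 11 libraries above it start at 549, and 6 of these, 4 of them wild type, lie at the left with a marker mean of at most 1.86.

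Markers of valve interstitial cells, the matrix-making cells of the leaflets, were present in the kept libraries. Postn, which encodes the matrix protein periostin, was 1115 to 3234 in kept and 307 to 482 in left-out libraries. Vcan, which encodes the large proteoglycan versican, was 1678 to 4628 in kept and 355 to 719 in left-out libraries. Col3a1, a collagen gene, was 751 to 1553 in kept and 241 to 423 in left-out libraries. All these ranges were apart. The ranges of Sox9, Twist1, Col1a1 and Prrx1 overlapped. Sox9 was 107 to 192 in kept and 62.6 to 250 in left-out libraries, and Twist1 27.0 to 126 and 16.5 to 117. Col1a1, another collagen gene, was 516 to 916 in kept and 325 to 761 in left-out libraries. Prrx1 had a median of 272 in kept and 324 in left-out libraries. Within the kept libraries Postn was 1998 to 3234 in the muscle-poor and 1115 to 2122 in the muscle-containing ones. In libraries of mixed tissue, fewer cells of a type and less RNA per cell cannot be told apart.

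The targeted gene was lower in mutants. Jag1 (protein-coding, minus strand, chr2:137081456-137116644 in GRCm38) was 54.7 and 18.8 in aortic libraries of wild type and 11.4, 5.93 and 10.2 in those of mutants. In pulmonary libraries it was 19.2, 25.7 and 15.4 in wild type against 4.70, 3.78 and 1.85 in mutants. Every mutant library lay below every wild-type library, and wild-type aortic 2 stood above all others. The log2 difference, mutant minus wild type, was -2.04 (SE 0.34), with -1.75 in the aortic and -2.28 in the pulmonary valve. An exact two-sided permutation of genotype within valve gave p = 0.005, the smallest that the 200 assignments allow. The difference was -2.23 with the muscle covariate, -2.12 at Tbx20 of at least 1000 and -1.94 in the muscle-matched pairs. The gene-level value may include reads from a recombined allele, since the floxed exons are not named. In the left-out libraries Jag1 was 13.6 to 39.7 in wild type (n = 3) and 9.90 to 12.4 in mutants (n = 2), and the difference in the Tbx20-rich minus that in the left-out libraries was log2 -1.21 (SE 0.63), which did not pass (unadjusted p = 0.0675).

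Across all genes no difference passed the threshold. Tested on log2(normalised count + 1) with valve as a covariate, 0 of 13862 genes (0%) had a limma adjusted p under 0.05, and the smallest adjusted p was 0.330, for Jag1. At an unadjusted p under 0.05, 593 genes were higher in mutants (4.28%) and 667 lower (4.81%). Counts of list members at that level below are to be read beside these shares. The median log2 difference of all tested genes was 0.00018. With edgeR on the recovered reads 0 genes passed (smallest adjusted p = 0.279), and with DESeq2 57 did, 30 higher and 27 lower in mutants, with an adjusted p of 2.66e-05 for Jag1. At Tbx20 of at least 1000, and in the muscle-matched pairs, 4 genes (0.0289%) passed in limma, all gene copies or pseudogenes. In 93 genes (0.671%) every mutant library lay above every wild-type library within both valves, and in 162 genes (1.17%) every mutant library lay below. A gene with this pattern is called non-overlapping here. The labels tie libraries to litters only. Libraries of different valves may share an embryo, in which case p-values over both valves are too small. Differences of single genes below are therefore measurements that did not pass the adjusted test in limma.

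The Notch receptors Notch3 and Notch2 were non-overlapping, as was their ligand. Notch3, the receptor of mural cells, was 71.0 and 51.8 in wild-type and 19.4, 27.4 and 31.7 in mutant aortic libraries. In pulmonary libraries it was 56.4, 54.2 and 33.9 in wild type against 33.3, 24.6 and 24.7 in mutants, so the pulmonary groups almost touched. Its log2 difference was -0.96 (SE 0.22), and it was -0.97 with the muscle covariate and -0.75 in the muscle-matched pairs. Pdgfrb, another mural cell gene, lay the same way, at 107 to 193 in wild-type and 35.4 to 123 in mutant libraries (log2 -1.16, SE 0.30, and -0.29 at Tbx20 of at least 1000). Pdgfrb was the member of the smooth muscle and pericyte list with the smallest p besides Notch3. Of the 16 markers on that list 10 were below 0 (median -0.10), but 8 were at Tbx20 of at least 1000 (median 0.026). Whether mural cell content had a part in the Notch3 difference was not tested.

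Notch2, a receptor of cushion mesenchyme and endocardium, was 224 and 202 in aortic libraries of wild type and 131, 156 and 148 in those of mutants. Its pulmonary levels were 188, 221 and 220 in wild type against 122, 102 and 183 in mutants. The pulmonary groups were close, since mutant pulmonary 4 lay just below wild-type pulmonary 2. The difference of Notch2 was log2 -0.61 (SE 0.15), -0.56 with the muscle covariate and -0.34 at Tbx20 of at least 1000. Notch1, the main receptor of the endocardium, overlapped between genotypes, at 136 to 301 in wild type and 128 to 304 in mutants. Its log2 difference was -0.30 (SE 0.25), and it turned to 0.053 with the muscle covariate and 0.25 at Tbx20 of at least 1000. Of the 7 Notch ligands and receptors tested from a list of 9, 4 were below 0 and 3 had an unadjusted p under 0.05, all lower (Jag1, Notch3 and Notch2). The list median was -0.30, and it was 0.045 with the muscle covariate, -0.010 in the muscle-matched pairs and -0.50 without mutant pulmonary 4.

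Among the Notch targets, the repressor genes Hey1 and Heyl were lower in the mutant of all 5 litter pairs. Over all genes 5.22% were lower in all 5 pairs and 3.89% higher. Hey1 was 64.9 and 32.8 in wild-type and 21.1, 34.6 and 13.7 in mutant aortic libraries, and 63.3, 35.2 and 28.5 against 21.5, 28.1 and 20.01 in pulmonary libraries. The aortic groups overlapped through mutant aortic 3 and wild-type aortic 4, while the pulmonary groups did not. The log2 difference was -0.90 (SE 0.28), and it was -1.05 with the muscle covariate, -1.37 at Tbx20 of at least 1000 and -0.67 in the muscle-matched pairs. Heyl was 71.0 and 37.0 in wild-type and 63.7, 50.6 and 27.2 in mutant aortic libraries, which overlapped. In pulmonary libraries it was 69.0, 73.0 and 56.5 in wild type against 48.6, 37.2 and 28.9 in mutants, with no overlap. The log2 difference of Heyl was -0.53 (SE 0.25), -0.80 with the muscle covariate and -0.99 at Tbx20 of at least 1000. Nrarp, which encodes a feedback inhibitor of Notch signalling, was 9.05 to 23.4 in wild-type and 2.42 to 16.5 in mutant libraries (log2 -0.87, SE 0.47). Of 12 targets tested from a list of 16, 8 were below 0 and 2 had an unadjusted p under 0.05 in the lower direction (Notch3, which stands in both lists, and Hey1). This count was 4 with the litter-pair block, where Heyl and Nrarp were added, 5 with the muscle covariate, 5 at Tbx20 of at least 1000 and 3 in the muscle-matched pairs. In each of the 3 alternatives 1 target was higher at that level. Of all 13862 genes 508, 413 and 369 were lower at that level in these alternatives. The target median was -0.28, and -0.22, -0.42 and -0.28 in the 3 alternatives, beside 0.0033, -0.014 and -0.0011 for all genes. Over all 16 libraries it was -0.066.

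Among genes of the signalling machinery neither direction prevailed. Of 27 such genes tested from a list of 29, 14 were above and 13 below 0, with a median of 0.023. The sign of that median varied with the setting: it was 0.13 at Tbx20 of at least 1000 (20 of 27 above 0), -0.16 in the aortic libraries (10 of 27), -0.16 with library weights, -0.012 under quantile scaling and -0.12 to 0.032 when 1 library was left out. Rbpj, the DNA-binding partner of cleaved Notch, was 77.5 to 107 in wild-type and 99.8 to 160 in mutant libraries, with a log2 difference of 0.50 (SE 0.15) and overlap in the aortic valve. Maml2, a coactivator of the Rbpj complex, was 48.9 to 79.9 in wild type and 21.6 to 67.1 in mutants (log2 -0.63, SE 0.25), with -0.081 in the aortic and -1.07 in the pulmonary valve.

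**Figure D2:**
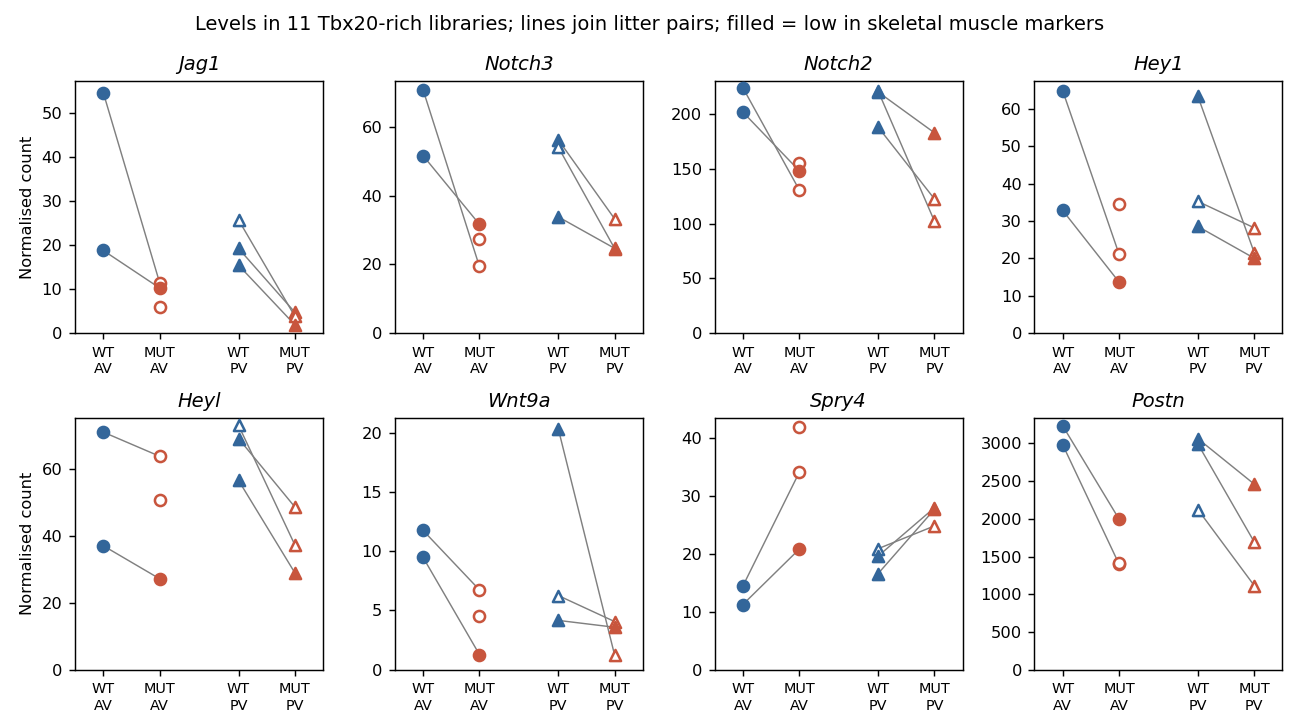
Normalised counts of 8 genes in the 11 Tbx20-rich libraries by genotype (WT, MUT) and valve (AV aortic, PV pulmonary), each point 1 library, with lines joining the 2 libraries of a litter pair and filled points for muscle-poor libraries. Every mutant Jag1 level, at most 11.4, lies below every wild-type level, at least 15.4, and all 5 lines of Notch3, Notch2, Hey1, Heyl, Wnt9a and Postn go down while those of Spry4 go up.

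Wnt9a, which encodes a Wnt ligand made in valve endocardium, was also non-overlapping. It was 11.7 and 9.48 in wild-type and 6.74, 4.54 and 1.28 in mutant aortic libraries, and 20.3, 6.25 and 4.16 in wild-type and 1.21, 4.06 and 3.58 in mutant pulmonary libraries. The levels are low, and the pulmonary groups were separated only by the gap between 4.06 and 4.16. The log2 difference was -1.32 (SE 0.45), and it was -1.39, -1.77 and -0.96 in the 3 alternatives. Lef1, a nuclear effector of Wnt signals, was 155 to 214 in wild-type and 61.3 to 158 in mutant libraries and was non-overlapping within each valve. For Lef1 the log2 difference was -0.91 (SE 0.23), and it was -0.67 with the muscle covariate and -0.26 at Tbx20 of at least 1000. The Wnt receptor gene Fzd7 lay the other way (log2 0.59, SE 0.27). Of 33 Wnt pathway genes tested, 21 were below 0, 4 of them at an unadjusted p under 0.05, and 1 was above 0 at that level (2 and 3 with the litter-pair block). The list median was -0.16, and it was -0.023, -0.067 and 0.050 in the 3 alternatives and 0.075 over all 16 libraries.

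The stretches before the starts of Wnt9a and Notch3 are shown because both genes were non-overlapping while the Rbpj core letters TGGGAA stand in the first and not in the second. Each sequence is the 250 bases before the gene's start in RefSeq (build GRCm38.p6), 5′ to 3′ on the gene's strand, with any match in capitals. The search covered TGGGAA on both strands, so a match may read TTCCCA.
Wnt9a, chr11:59306680-59306929, plus strand: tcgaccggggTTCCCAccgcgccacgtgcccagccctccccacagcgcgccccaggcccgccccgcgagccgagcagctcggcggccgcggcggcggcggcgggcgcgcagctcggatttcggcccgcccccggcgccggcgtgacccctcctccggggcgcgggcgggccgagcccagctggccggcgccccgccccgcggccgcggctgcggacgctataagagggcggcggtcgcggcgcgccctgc
Notch3, chr17:32166891-32167140, minus strand: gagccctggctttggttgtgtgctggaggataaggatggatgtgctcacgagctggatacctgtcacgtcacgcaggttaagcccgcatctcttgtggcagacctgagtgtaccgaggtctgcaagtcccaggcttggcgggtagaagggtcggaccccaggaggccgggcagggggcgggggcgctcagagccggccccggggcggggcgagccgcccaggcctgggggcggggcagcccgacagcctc
The match in Wnt9a starts at position -240 from the gene's start. Of all 32851 promoters of this length 21.6% hold the letters, and of the 10332 tested genes with a promoter 20.4% do. The share was 14.55% in the 110 non-overlapping lower genes with a promoter, 16.2% in the 456 genes lower at an unadjusted p under 0.05 and 20.05% in the 429 higher ones. Among the Notch genes of the 3 lists, 45 were tested, 35 had a promoter in the table and 8 held the letters. These shares describe short windows only and show no binding.

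Among the 10 genes with the smallest p on the lower side, 9 were non-overlapping. Itga10, a collagen-binding integrin chain, was 32.4 and 28.8 in wild-type and 10.02, 9.84 and 6.83 in mutant aortic libraries, and 30.7, 28.03 and 23.6 against 15.2, 3.64 and 12.1 in pulmonary libraries. No mutant library reached the lowest wild-type level. The log2 difference was -1.59 (SE 0.31), and -1.61, -1.55 and -1.83 in the 3 alternatives. Epha3, an ephrin receptor kinase of cushion mesenchyme, was 89.1 and 68.1 in wild-type and 26.8, 21.8 and 20.3 in mutant aortic libraries. In pulmonary libraries it was 45.5, 57.7 and 47.8 in wild type against 27.2, 19.5 and 42.9 in mutants. It was non-overlapping, with a log2 difference of -1.21 (SE 0.24), of which -1.73 in the aortic and -0.80 in the pulmonary valve.

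Fgfr2, a fibroblast growth factor receptor, was 193 to 284 in wild-type and 99.3 to 177 in mutant libraries (log2 -0.80, SE 0.17, and -0.86 at Tbx20 of at least 1000). Bmper, a secreted protein that binds bone morphogenetic proteins, was 141 to 217 in wild-type and 43.8 to 131 in mutant libraries (log2 -1.21, SE 0.26), and its difference was smaller at Tbx20 of at least 1000 (-0.69). These ranges were apart, so no mutant library reached a wild-type level. Mical1, an enzyme that oxidises actin, was 43.1 to 72.8 in wild type and 13.3 to 34.4 in mutants (log2 -1.23, SE 0.24). Pde3a, which breaks down cyclic AMP, was 60.0 to 82.5 and 31.6 to 49.6 (log2 -0.84, SE 0.17). Rapgef4, an exchange factor switched on by cyclic AMP, was the only gene of these 10 that overlapped, through aortic replicate 4, at 32.3 in wild type and 32.4 in the mutant. Naalad2, a peptidase gene, and Ptpra, a receptor phosphatase gene, had log2 differences of -1.39 (SE 0.30) and -0.80 (SE 0.17). All 10 kept their direction in the 3 alternatives.

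Among the 10 genes with the smallest p on the higher side, 8 were non-overlapping. Mcu, the pore of the mitochondrial calcium uniporter, was 15.98 and 13.9 in wild-type and 29.8, 26.4 and 28.9 in mutant aortic libraries, and 13.0, 11.8 and 15.8 against 31.7, 44.8 and 19.0 in pulmonary libraries. Every mutant library was above every wild-type library. For Mcu the log2 difference was 1.01 (SE 0.24), and 0.94, 0.65 and 1.03 in the 3 alternatives. Ccdc90b, which encodes a mitochondrial membrane protein, was 18.6 to 31.5 in wild type and 29.4 to 60.9 in mutants (log2 1.03, SE 0.23) and was non-overlapping within each valve. Paics, an enzyme of purine synthesis, had narrow ranges of 172 to 194 in wild type and 223 to 296 in mutants (log2 0.51, SE 0.12).

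Ube2g1, a ubiquitin-conjugating enzyme, was 46.7 to 65.2 in wild-type and 68.0 to 108 in mutant libraries (log2 0.66, SE 0.16). Dcun1d2, which helps to attach Nedd8 to cullins, was 12.3 to 15.6 and 18.6 to 40.3 (log2 0.96, SE 0.23). Both were non-overlapping. Gltp, a glycolipid transfer protein, overlapped through wild-type aortic 2 (45.6), and its log2 difference was 1.04 (SE 0.25) with 1.31 in the muscle-matched pairs. Tdrkh, a Tudor domain protein of the piRNA pathway, was low, at 0.612 to 4.17 in wild type and 5.69 to 14.49 in mutants (log2 1.56, SE 0.39). Hist1h4d, Rps16 and Rps3a1 (log2 0.72, 0.88 and 0.90) have near-identical copies among which reads may be split, so their levels are uncertain. DESeq2 called 18 of these 20 leading genes. The 20 genes were chosen by p from these same libraries. Their lack of overlap, their kept direction and the DESeq2 calls are therefore no independent support.

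**Figure D3:**
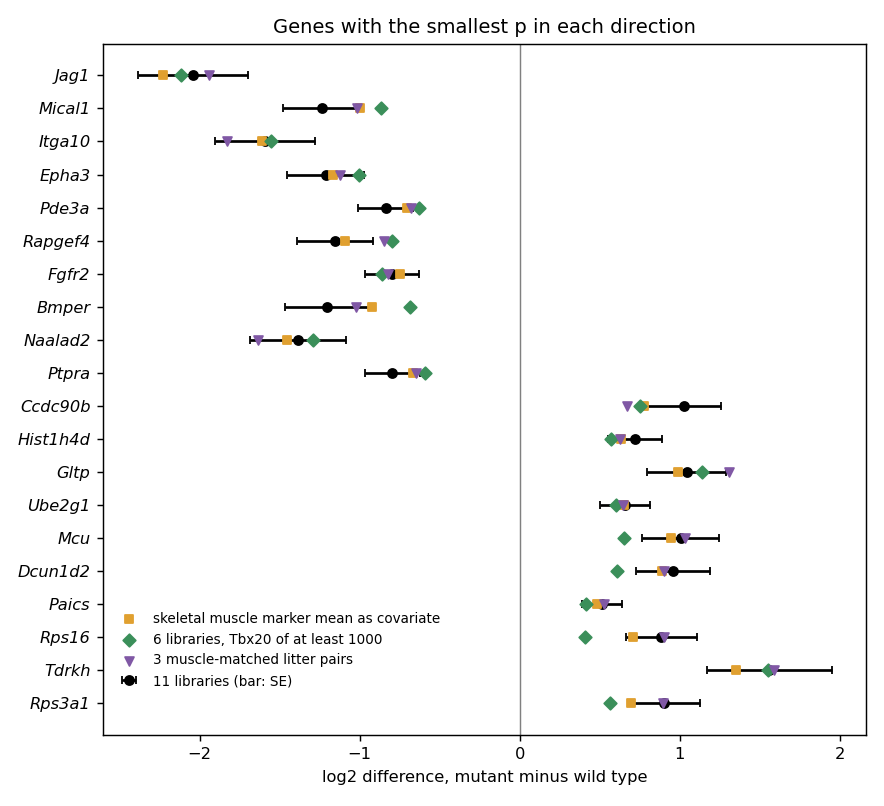
Log2 difference, mutant minus wild type, of the 10 leading genes by p on each side of 0, with black points and SE bars for the 11 libraries and coloured points for the 3 alternatives. All 4 points of each gene lie on the same side of 0, from Jag1 at -2.04 to Tdrkh at 1.56 in the 11 libraries.

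In the EGF receptor pathway, Spry4 and Etv5 were higher and Erbb4 was lower in the mutant of all 5 litter pairs. Spry4, a Sprouty inhibitor of the Ras pathway, was 14.4 and 11.2 in wild-type and 34.0, 41.9 and 20.8 in mutant aortic libraries, and 16.6, 20.8 and 19.6 against 27.6, 24.8 and 27.9 in pulmonary libraries. It was non-overlapping within each valve. For Spry4 the log2 difference was 0.81 (SE 0.24), and 0.65, 0.63 and 0.52 in the 3 alternatives. Etv5, an ETS factor downstream of the same pathway, was 25.1 to 46.6 in wild type and 45.1 to 62.8 in mutants (log2 0.63, SE 0.19). Erbb4, the neuregulin receptor, was 38.9 to 74.2 in wild type and 18.8 to 57.4 in mutants, with overlap (log2 -0.67, SE 0.26). Of 16 genes of the pathway tested, 10 were above 0, with 2 higher and 1 lower at an unadjusted p under 0.05. The list median was 0.22, and it was 0.27, 0.31 and 0.25 in the 3 alternatives.

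Genes of the BMP and TGF-beta pathways, which drive cushion formation and matrix production, were mostly below 0. Of 23 BMP genes tested 16 were below 0, 3 of them at an unadjusted p under 0.05, and 2 were above 0 at that level, with a median of -0.33 (-0.20, -0.17 and -0.16 in the alternatives, and 0.13 over all 16 libraries). The receptor gene Bmpr1b had the smallest p of the list and lay above 0 (log2 1.87, SE 0.72), higher in the mutant of 4 pairs and lower in none, with 0.97, 0.76 and 1.14 in the 3 alternatives and -0.28 with Tbx20 as a covariate. Bmpr1b was low, at 0 to 6.49 in wild type and 0 to 23.0 in mutants. Smad9, a BMP signal transducer, was lower in the mutant of all 5 litter pairs (log2 -0.75, SE 0.33), and the receptor gene Acvr2a in 3 of 5 (log2 -0.54, SE 0.21). Of 17 TGF-beta genes tested 13 were below 0, 4 of them at that level, and 2 were above 0 at that level (1 with the litter-pair block). The median of -0.15 was -0.044, -0.015 and -0.067 in the alternatives and 0.16 with Tbx20 as a covariate. Tgfb2, the ligand of cushion mesenchyme, was 182 to 393 in wild type and 125 to 281 in mutants (log2 -0.74, SE 0.24, and -0.41 with the muscle covariate). Ltbp4, which stores latent TGF-beta in the matrix, was 170 to 269 and 88.6 to 178 (log2 -0.69, SE 0.18). In the muscle-poor libraries Ltbp4 was 170 to 269 in wild type and 153 to 178 in mutants, with overlap.

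Of 35 cushion and valve transcription factors tested, 19 were below 0 and 16 above, with a median of -0.066 that was 0.024 with the muscle covariate, 0.21 in the muscle-matched pairs and 0.20 over all 16 libraries. Lmcd1, a cofactor that restrains GATA factors, was 50.9 and 54.0 in wild-type and 17.9, 19.7 and 29.9 in mutant aortic libraries. In pulmonary libraries it was 37.0, 32.2 and 60.7 in wild type against 28.5, 19.5 and 19.5 in mutants. No mutant library reached a wild-type level, and the log2 difference was -1.03 (SE 0.23), with -0.91, -1.01 and -1.04 in the 3 alternatives. Twist1, a factor of cushion mesenchyme, was 76.4 and 126 in wild-type and 38.8, 27.0 and 38.3 in mutant aortic libraries but overlapped in the pulmonary valve. Its log2 difference was -1.49 in the aortic and -0.19 in the pulmonary valve, and the difference between valves had an unadjusted limma p of 0.00972 (adjusted p over all genes 1.00).

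The structural matrix of the leaflets was below 0 in most genes and stayed so in the 3 alternatives. Of 42 genes tested, 32 were below 0 (50.0% of all genes were). At an unadjusted p under 0.05, 14 of the 42 were lower and 1 was higher, beside 4.81% and 4.28% of all genes. In the 3 alternatives 11, 5 and 10 were lower and 1, 1 and 0 higher. Of all 13862 genes 508, 413 and 369 were lower there. Over all 16 libraries 0 matrix genes were lower and 0 higher at that level. The matrix median was -0.33, and it was -0.18 with the muscle covariate, -0.18 at Tbx20 of at least 1000 and -0.29 in the muscle-matched pairs, where 36 of 42 were below 0. With Tbx20 itself as a covariate the median changed sign, to 0.024. Over all 16 libraries it was -0.11, with 27 of 42 below 0. Over all genes 49.5%, 51.7% and 50.1% were below 0 in the 3 alternatives, and 50.5%, 48.3% and 49.9% above. Postn was 2984 and 3234 in wild-type and 1401, 1418 and 1998 in mutant aortic libraries, and 2992, 2122 and 3062 against 1692, 1115 and 2459 in pulmonary libraries. It was lower in the mutant of all 5 litter pairs, with overlap in the pulmonary valve through mutant pulmonary 4. Its log2 difference was -0.81 (SE 0.20), and -0.59, -0.47 and -0.65 in the 3 alternatives. Vcan was 3281 to 4628 in wild type and 1678 to 3635 in mutants (log2 -0.73, SE 0.22, but -0.21 at Tbx20 of at least 1000). Lum, a small leucine-rich proteoglycan that spaces collagen fibrils, and Fbln1, a basement membrane and elastic fibre protein, had log2 differences of -0.78 (SE 0.24) and -0.72 (SE 0.20). In the muscle-poor libraries both overlapped. There Lum was 441 to 669 in wild type and 422 to 551 in mutants, and Fbln1 was 158 to 181 and 119 to 162. The summed matrix level was 17024 to 23316 in wild-type and 11408 to 20545 in mutant libraries, and also 20544 to 23316 in muscle-poor against 11408 to 17024 in muscle-containing ones.

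Proteases and their inhibitors, which remodel that matrix, lay the same way, with 21 of 23 tested below 0. At an unadjusted p under 0.05, where 4.81% of all genes were lower, 8 of these proteases and inhibitors were lower and 0 higher. In the 3 alternatives 4, 7 and 3 were lower and 0, 2 and 0 higher, and over all 16 libraries 0 were lower and 0 higher. The median was -0.27, and -0.22, -0.18 and -0.17 in the 3 alternatives, where 14, 13 and 16 of 23 were below 0. It changed sign with Tbx20 as a covariate (0.10) and over all 16 libraries (0.017). Timp3, an inhibitor of metalloproteinases bound to matrix, was 449 and 400 in wild-type and 201, 287 and 333 in mutant aortic libraries, and 358, 422 and 488 against 332, 184 and 279 in pulmonary libraries. It was non-overlapping, with a log2 difference of -0.68 (SE 0.17) and -0.75 in the muscle-matched pairs. Adamts19, a protease of the valves, was 107 to 296 in wild type and 64.4 to 185 in mutants (log2 -1.03, SE 0.29, and -0.69, -0.80 and -0.89). Adam19, a membrane sheddase of the cushions, was 320 to 410 and 191 to 362 (log2 -0.58, SE 0.17). In the muscle-poor libraries Adam19 was 374 to 410 in wild type and 332 to 362 in mutants.

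The medians of the endothelial and cardiomyocyte lists changed sign in the 3 alternatives. Of 24 endothelial and endocardial markers, 20 were below 0 in the 11 libraries (median -0.18), but 17 were above 0 with the muscle covariate (median 0.13), 22 at Tbx20 of at least 1000 (0.46) and 21 in the muscle-matched pairs (0.24). At Tbx20 of at least 1000, 9 of them were higher at an unadjusted p under 0.05, where 3.04% of all genes were. Emcn, a sialomucin of endothelium, was 6.89 and 7.19 in wild-type and 21.8, 13.7 and 15.2 in mutant aortic libraries, with overlap in the pulmonary valve (log2 0.86, SE 0.39). Npr3, a natriuretic peptide receptor of endocardium, was 18.3 to 41.3 in wild type and 17.4 to 30.3 in mutants (log2 -0.44, SE 0.26). Of 22 cardiomyocyte markers, 17 were above 0 in the 11 libraries (median 0.50), but 17, 16 and 18 were below 0 in the 3 alternatives (medians -0.30, -0.53 and -0.35), and the median was -0.080 without mutant pulmonary 2. Their summed level was 461 to 1777 in muscle-poor and 1447 to 8191 in muscle-containing libraries. The 15 erythroid markers tested had 14 below 0 (median -0.21), but a median of 0.83 in the muscle-matched pairs and 0.38 without wild-type aortic 2.

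Neuronal markers, which in outflow tissue can come from nerve fibres and ganglia next to the valve, were mostly above 0. Of 19 tested, 16 were above 0, 10 of them at an unadjusted p under 0.05, with a median of 0.84 (0.55, 0.16 and 0.44 in the alternatives). The count of 10 was 7 with the muscle covariate, 0 at Tbx20 of at least 1000, where 1 was lower, and 3 in the muscle-matched pairs. Of all 13862 genes 593 (4.28%) were higher at that level in the 11 libraries, and 487, 421 and 335 in the 3 alternatives. The summed level of the neuronal markers was 181 to 223 in wild-type and 228 to 548 in mutant libraries, and it reached 228 in the muscle-poor ones. Syt4, a synaptic vesicle protein, was 4.20 to 5.46 in all 6 mutant libraries, and at most 0.470 in 4 wild-type libraries but 6.28 in wild-type pulmonary 2 (log2 1.82, SE 0.49). Elavl3 and Nefm, genes of neuronal RNA binding and neurofilament, were 0.247 to 31.8 and 0.494 to 26.6 in mutants and at most 0.927 and 3.29 in wild type. The high mutant values of both were all in the muscle-containing libraries, and at Tbx20 of at least 1000 their log2 differences were 0.33 and 0.31 against 2.28 and 2.23 in the 11 libraries. Elavl4, a related gene, was higher in the mutant of all 5 litter pairs (log2 1.52, SE 0.47, and 0.45 in the muscle-matched pairs). The part of nerve content in any other result was not tested.

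Markers of cartilage, which flanks the outflow tract, had 9 of 14 above 0 and a median of 0.55, which was -0.23 at Tbx20 of at least 1000 and -0.081 in the muscle-matched pairs. Col11a2, a cartilage collagen gene, reached 64.1 in mutant aortic 2 and was at most 1.71 in kept wild-type libraries (log2 2.03, SE 0.67, and 0.37 at Tbx20 of at least 1000). In the left-out libraries Col11a2 was 11.7 to 61.4 in wild type and 13.7 to 22.9 in mutants. Runx2, a factor of bone and cartilage, was 3.74 to 20.6 in wild type and 5.83 to 60.9 in mutants (log2 1.41, SE 0.50). Matn4, a matrix adaptor protein, was the only non-overlapping gene of the list and was lower in mutants (log2 -0.71, SE 0.37), though its pulmonary groups were separated only by the gap between 9.94 and 9.96. It and Sox9, a factor of cartilage and cushion mesenchyme (log2 -0.25, SE 0.15), were lower in the mutant of all 5 litter pairs, and Comp, a cartilage matrix protein (log2 1.18, SE 0.49), was higher in all 5. Comp was low, at 0 to 2.19 in wild type and 0.618 to 9.87 in mutants. In the muscle-poor libraries it was 0.245 to 2.19 in wild type and 0.618 to 0.853 in mutants. Matn4 and Sox9 were singled out after their values were seen.

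Of 21 macrophage and antigen presentation markers, 14 were above 0, with 4 higher and 1 lower at an unadjusted p under 0.05. The median was 0.23, and it was 0.27, 0.48 and 0.44 in the 3 alternatives and 0.49 without wild-type pulmonary 2. It was 0.55 in the aortic libraries, 0.0032 in the pulmonary ones (11 of 21 above 0) and -0.071 over all 16 libraries. Mrc1, the mannose receptor of tissue macrophages, was 3.13 and 11.6 in wild-type and 19.9, 5.80 and 27.3 in mutant aortic libraries, and 4.67, 2.08 and 7.59 against 20.5, 8.26 and 9.14 in pulmonary libraries. It overlapped in the aortic valve only (log2 1.202, SE 0.45). Tyrobp, a signalling adaptor of myeloid cells, was 3.33 to 7.48 in wild type and 7.20 to 12.7 in mutants (log2 0.93, SE 0.32). Cd83, a glycoprotein of activated immune cells, was 0.157 and 1.05 in wild-type and 3.29, 0.883 and 1.28 in mutant aortic libraries, which overlapped. In pulmonary libraries it was listed at 0 in all 3 of wild type and was 0.671, 6.30 and 3.58 in mutants. Cd74, the invariant chain of antigen presentation, went the other way and was non-overlapping, at 1.603 to 17.4 in wild type and 0.247 to 1.99 in mutants (log2 -1.47, SE 0.51). These levels are near the lower end of what the depth can count.

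Proliferation genes showed small differences. Of 35 mitosis genes 20 were above 0 (median 0.055), and of 32 DNA replication genes 21 were (median 0.049). Over all 16 libraries these medians were -0.12 and -0.21. Ccna2, the cyclin of S phase and mitotic entry, was non-overlapping, at 121 to 144 in wild type and 157 to 231 in mutants (log2 0.54, SE 0.14, and 0.26 at Tbx20 of at least 1000). Pcna, the sliding clamp of replication, was non-overlapping within each valve, at 74.9 to 148 and 143 to 202 (log2 0.67, SE 0.18). Mcm6, a subunit of the replicative helicase, lay the other way, lower in the mutant of all 5 litter pairs (log2 -0.31, SE 0.15).

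Glycolysis genes were above 0 in 19 of 21. At an unadjusted p under 0.05, where 4.28% of all genes were higher, 8 of the 21 were higher. This count was 5 with the muscle covariate, 1 at Tbx20 of at least 1000, where 1 was lower, and 3 in the muscle-matched pairs. Of all 13862 genes 487, 421 and 335 were higher at that level in these settings. The median of the glycolysis genes was 0.52, and 0.28, 0.16 and 0.25 in the 3 alternatives. Their summed level was 1071 to 2180 in muscle-poor and 1941 to 2790 in muscle-containing libraries. Pfkl, the liver form of phosphofructokinase, was non-overlapping. It was 16.6 and 16.5 in wild-type and 42.6, 34.2 and 20.9 in mutant aortic libraries, and 28.8, 24.6 and 24.6 against 39.5, 29.8 and 62.7 in pulmonary libraries. Its log2 difference was 0.77 (SE 0.24), and 0.76, 0.76 and 0.64 in the 3 alternatives. Ldha, Pgam1 and Pgk1, which make lactate and late glycolytic intermediates, were higher in the mutant of all 5 litter pairs (log2 0.58, 0.79 and 0.69). Among 17 hypoxia response genes 12 were above 0 (median 0.28), and 9 at Tbx20 of at least 1000 (median 0.015). The median was 0.15 with the muscle covariate and 0.27 in the muscle-matched pairs. Bnip3, a mitochondrial protein induced by low oxygen, differed by 0.46 in the aortic and 1.78 in the pulmonary valve, and Ndrg1, another hypoxia-induced gene, by 1.08 and 0.66.

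Of 25 sterol synthesis genes 13 were above 0 (median 0.011), with 20, 21 and 19 above 0 in the 3 alternatives (medians 0.13, 0.40 and 0.26). The median was -0.067 in the pulmonary libraries and -0.029 over all 16. Msmo1, a sterol oxidase, was non-overlapping, at 12.1 to 18.1 in wild type and 20.4 to 30.6 in mutants (log2 0.88, SE 0.22, and 0.84, 0.81 and 0.67). Dhcr7, which makes cholesterol in the last step, was non-overlapping in the lower direction, at 13.5 to 23.6 and 3.91 to 12.4 (log2 -1.001, SE 0.34, and -0.89, -0.34 and -0.57). Idi1, an isomerase early in the pathway, was higher in 4 of 5 pairs (log2 1.15, SE 0.38).

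Cytosolic ribosomal protein genes were above 0 in 46 of 47, with a median of 0.30, but in 18 of 47 at Tbx20 of at least 1000 (median -0.044). With the muscle covariate 41 were above 0 (median 0.094), and 43 in the muscle-matched pairs (0.15). Their summed level was 14871 to 19187 in muscle-poor and 22757 to 30735 in muscle-containing libraries. Oxidative phosphorylation genes were above 0 in 38 of 46, with a median of 0.16. In the 3 alternatives 26, 20 and 21 were above 0 (medians 0.032, -0.047 and -0.023). Atp5b, the catalytic subunit of ATP synthase, was non-overlapping within each valve (log2 0.35, SE 0.14, and 0.30, 0.20 and 0.27). Among 12 glucocorticoid-responsive genes 8 were above 0 (median 0.33), and 6 over all 16 libraries (0.015). The median was -0.058 for the members with a mean of at least 5. Of these, the kinase gene Sgk1 was non-overlapping, at 6.81 to 16.4 in wild type and 18.9 to 27.4 in mutants (log2 0.92, SE 0.26, and 0.94, 0.96 and 0.94). The metallothionein gene Mt2, also of that list, was 0.935 to 2.08 in wild type and 2.84 to 10.2 in mutants (log2 1.27, SE 0.40). Slc7a5, which encodes an importer of leucine and other amino acids, was 30.9 to 60.3 in wild type and 11.9 to 36.6 in mutants (log2 -1.04, SE 0.27, and -0.86, -0.44 and -0.65). Of 19 amino acid stress response genes tested, 10 were above 0 and 9 below (median 0.034). At an unadjusted p under 0.05, 2 of them were higher and 1 was lower.

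**Figure D4:**
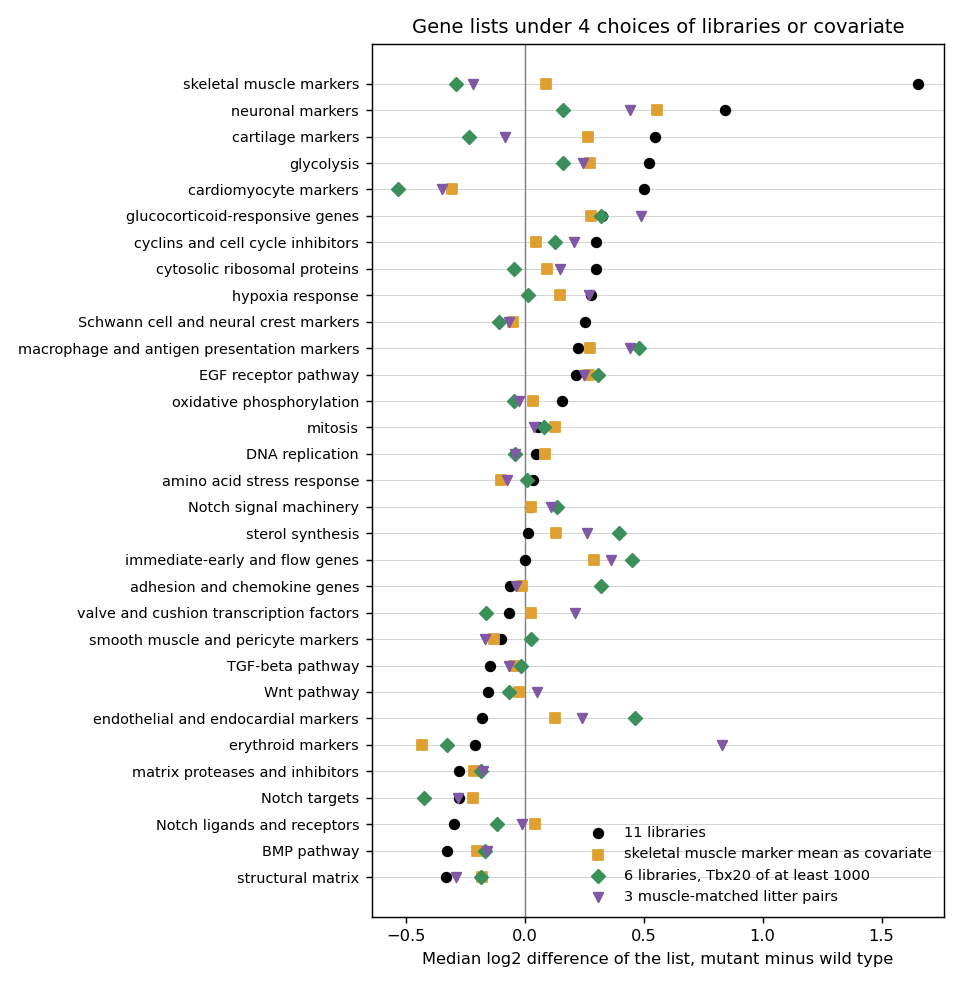
Median log2 difference, mutant minus wild type, of each of 31 gene lists in the 11 libraries (black) and in the 3 alternatives (coloured). Structural matrix (-0.33), protease, Notch target, BMP and TGF-beta medians stay below 0 in all 4. Endothelial and cardiomyocyte medians change sign, and the skeletal muscle median goes from 1.65 to between -0.29 and 0.09. The skeletal muscle markers define the covariate and the matched pairs, and the libraries with Tbx20 of at least 1000 are the muscle-poor ones. The fall of their median therefore follows from how the alternatives were chosen.

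Within each valve, and between valves, no gene passed. In the aortic libraries (2 wild type, 3 mutant) 581 genes (4.19%) had an unadjusted limma p under 0.05 and 0 an adjusted p under 0.05 (smallest 0.790), and in the pulmonary libraries (3 of each) 737 (5.32%) and 0 (smallest 0.860). The difference of the genotype effect between valves gave 0 genes past the threshold and 320 (2.31%) at an unadjusted p under 0.05. The valves were made as separate library batches, so a difference between valves and a batch difference cannot be told apart, while genotypes were compared within a batch.

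Set against the 5 left-out libraries, the genotype effect also differed in no gene past the threshold (limma over 16 libraries, 0 of 13862, smallest adjusted p = 0.413), with 1024 genes (7.39%) at an unadjusted p under 0.05. Lef1, Ncam1 and Ptpra were among the latter, with a mutant minus wild-type difference that was lower in the Tbx20-rich than in the other libraries by -1.57, -1.30 and -1.22 on the log2 scale. Ncam1, a neural and cushion adhesion molecule, was 107 to 169 in wild-type and 68.4 to 126 in mutant Tbx20-rich libraries (log2 -0.57, SE 0.19). Over all 16 libraries its difference was 0.084, above 0.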

How the data were processed

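RNA of laser-captured valves was isolated on PicoPure columns, amplified with the Ovation RNA-Seq V2 system and made into TruSeq libraries, per the labels' protocols. Named tools are RSEM 1.2.3, FastQC, cutadapt 1.6 and CASAVA 1.8.2, and the build is GRCm38, per the submitters' processing notes. How values were normalised is not stated there. For 13964 genes the deposited values are a normalised signal, called normalised count here. Within each library 100% of values were whole multiples of the value of 1 read (tolerance 0.05 read), so whole reads were recovered. RSEM shares reads between near-identical genes, so gene copies are uncertain. Intervals of reads were not used, since amplified reads carry no stated molecular identifiers.

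Libraries with Tbx20 of at least 300 were kept. Mutant was compared with wild type with limma 3.58.1 (R 4.3.3, mean-variance trend, two-sided) on log2(value + 1), with valve as a covariate, over the 13862 genes that reached a value of 1 in 4 or more kept libraries. Tbx20 was not tested. A log2 difference on this scale understates the change of low genes. P-values were adjusted by Benjamini-Hochberg over all tested genes, with a threshold of 0.05. edgeR 4.0.16 (quasi-likelihood) and DESeq2 1.42.0 were run on the recovered reads as alternatives. The fit was tested on simulated data. Nothing in the labels says that libraries of a group come from separate embryos, so p-values measure the spread between these libraries.

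Members, lists and tests were chosen with earlier results of these data known. The 31 lists hold 727 genes and had no set test. Named genes were Jag1, 10 leading genes by p per direction with a mean of at least 5, and per list up to 4 leading members with a mean of at least 1, of which the text gives a part. Predicted genes and pseudogenes were not named unless they passed. Genes named for the difference from the left-out libraries were picked once their values were known.

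Labels give each library a litter, and within a valve libraries of the same replicate number share it. The kept libraries hold 5 litter pairs, and 1 litter has both valves among the kept libraries. Deviations from the group means correlated within pairs at 0.223 and 0.086 (aortic replicates 4 and 2) and at 0.237, -0.092 and 0.199 (pulmonary replicates 4, 2 and 3). The muscle-matched pairs and the skeletal muscle class as a covariate were chosen after seeing the data.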

Additional observations from a re-analysis of the deposited data

Results flagged for a closer look

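The highest wild-type Jag1 level, 54.7 in wild-type aortic 2, stood apart from the other 4 wild-type libraries, which had at most 25.7. On normalised counts with both valves pooled, the gap passed the 95% limit of a test for a single outlying value. For Jag1 this test was not run on the log2 scale. Without wild-type aortic 2 the log2 difference of Jag1 averaged over both valves was -1.64 (exact two-sided permutation p = 0.025, the smallest of its 80 assignments). The mean of the hypoxia response genes in wild-type aortic 4, 4.53 on the log2 scale, stood below the other 4 wild-type libraries by the same test. The test was run for Jag1 and for each of the 31 lists, separately in each genotype. It singled out no other library, and chance alone would single out about 1 in 20 groups in this way.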

How the results depend on the processing

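No gene passed in limma, and this held in the 33 alternatives except DESeq2 on recovered reads (57 genes), Tbx20 of at least 1000 (4 genes) and the replicate block over muscle-matched litter pairs (the same 4 genes). Jag1 differed by log2 -2.28 with DESeq2, where it passed. Its exact permutation p was 0.111 at Tbx20 of at least 1000 and 0.1 in either valve alone, the smallest those designs allow, and 0.01 to 0.025 when 1 library was left out. With the replicate block over all 5 litter pairs 0 genes passed (smallest adjusted p = 0.126, for Bmper), Jag1 differed by -1.96, and the block changed no other call at an adjusted p under 0.05. At an unadjusted p it moved the counts of many lists, among them the Notch target, Wnt and TGF-beta counts given above. Skeletal muscle markers higher at that level went from 1 to 7, ribosomal protein genes from 10 to 14 and glycolysis genes from 8 to 6. Lower structural matrix genes went from 14 to 18. The 1260 genes at an unadjusted p under 0.05 became 2219 with library weights, 1933 without mutant pulmonary 4, 834 at Tbx20 of at least 1000, 737 in pulmonary and 581 in aortic libraries alone, 732 with Tbx20 as a covariate, 704 in the muscle-matched pairs and 418 over all 16 libraries. Of the 139 genes that the naming rule takes, 107 kept their direction in every alternative run and 32 turned in 1 or more. Of the 86 genes whose differences are given in the text 79 kept it. Notch1 turned to 0.25 at Tbx20 of at least 1000, 0.10 over all 16 libraries, 0.053 with the muscle covariate, 0.46 with Tbx20 as a covariate, 0.15 with muscle class and 0.18 in the muscle-matched pairs. Erbb4 (0.025), Tgfb2 (0.045) and Lum (0.014) turned with Tbx20 as a covariate, as did Bmpr1b (-0.28), and Ncam1 (0.084) and Sox9 (0.18) turned over all 16 libraries. Of the 31 list medians, 12 changed sign with Tbx20 as a covariate, 15 over all 16 libraries and 0 under median scaling. The cause of these changes was not tested.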

Other observations

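The 4 genes that passed in limma at Tbx20 of at least 1000 and in the muscle-matched pairs, chosen after their values were seen, were Tpm3-rs7, Rps3a3, Rps3a2 and Gm3608, which are gene copies or pseudogenes. Rps3a3 was 321 and 263 in wild-type aortic 2 and 4 and 112, 136 and 92.0 in wild-type pulmonary 2, 3 and 4. In mutants it was 398 in aortic 2 and 175 in pulmonary 2 and was listed at 0 in aortic 3 and 4 and pulmonary 3 and 4. Rps3a2 had the same pattern, at 159 in mutant aortic 2 and 148 in mutant pulmonary 2 against 1.71 to 2.38 in the other 4 mutant libraries. Levels near 0 were not particular to mutants: among the left-out libraries Rps3a3 was 617 in wild-type aortic 1, listed at 0 in wild-type aortic 3 and 0.682 in wild-type pulmonary 1, and listed at 0 in both mutants. Both high mutant libraries belong to the only litter with both valves among the kept libraries. Neither is among the 6 libraries with Tbx20 of at least 1000 or the muscle-matched pairs. Rps3a1, the parent gene, was 600 to 1486 in mutants and 348 to 609 in wild type.

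The chemokine gene Cxcl12 was higher in the mutant of all 5 litter pairs, at 7.22 to 97.6 in wild type and 28.3 to 150 in mutants (log2 1.41, SE 0.52). Ackr3, a scavenging receptor of the same chemokine, was lower in the mutant of all 5 pairs (log2 -0.66, SE 0.25, and -0.077 at Tbx20 of at least 1000). Of 15 adhesion and chemokine genes tested, 6 were above 0 and 9 below, with 1 higher and 3 lower at an unadjusted p under 0.05. Their median was -0.063, and -0.011, 0.32 and -0.036 in the 3 alternatives. Of the 19 immediate-early and flow genes tested, 10 were above 0 in the 11 libraries (median 0.0020), and 12, 15 and 14 were in the 3 alternatives (medians 0.29, 0.45 and 0.36), but the median was -0.14 for members with a mean of at least 5 and -0.30 without mutant pulmonary 4.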
